A study of Populus alba x Populus glandulosa with 18 samples.

Results

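The 7 poplar genes described here encode enzymes that make or inactivate brassinosteroids, the steroid hormones of plants. They were taken by gene ID out of the 42950 genes of the deposited table, whose *Arabidopsis* symbols name them *DET2* (Potri.016G110600), *DWF4* (Potri.007G026500), *CPD* (Potri.010G189800), *CYP90D1* (Potri.001G200100), *CYP85A1* (Potri.004G117700), *CYP85A2* (Potri.017G099000) and *BAS1* (Potri.003G192300). RNA-seq was performed on 18 libraries, 3 from *PagDET2*-OE trees and 3 from 84K wild-type trees in each of 3 stem domains. The primary stem (PS) was the apex with internodes 1 to 3, whereas bark with cambium and differentiating phloem (BA) and the surface of the trunk wood (XY) came from internodes 5 to 12. The sample labels call these domains shoot apical meristem, cambium and xylem. All trees were of the hybrid poplar 84K (*Populus alba* × *P. glandulosa*), grew in a greenhouse and were 2 months old. *PagDET2*-OE trees carried the full coding sequence of the poplar *DET2* gene in the vector pCAMBIA1300, driven in all tissues by the constitutive 35S promoter, and 84K trees carried no transgene. Which overexpression line gave each library is not in the labels, so the effect of a single line and that of the transgene cannot be told apart. Each replicate was a tree, and whether a tree gave libraries of several domains is not stated.

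Brassinosteroids are made from plant sterols by a chain of reductases and cytochrome P450 enzymes. In *Arabidopsis*, *DET2* reduces the steroid ring, *DWF4* hydroxylates the side chain at the step regarded as limiting, *CPD* and *CYP90D1* oxidise further positions, and the *CYP85A* enzymes form castasterone, which *CYP85A2* also converts to brassinolide. *BAS1* hydroxylates and thereby inactivates these hormones. In *Arabidopsis*, an excess of the hormone lowers the transcripts of *DWF4*, *CPD* and *CYP85A* genes and raises that of *BAS1*, and the hormone promotes cambium division and xylem differentiation.

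The primers of the study for *DET2* are shown because they define the transcribed part of the transgene, whose reads fall on the same gene model as those of the endogenous gene. DET2-SF and DET2-SR amplified the coding sequence for cloning, whereas DET2-QRT-F and DET2-QRT-R were used for quantitative PCR. Capitals mark the start codon in the forward primers and the reverse complement of the stop codon TGA in DET2-SR.
DET2-SF: ATGgccctattagatcagagcctctt
DET2-SR: TCAacacagaaaagggatcactgct
DET2-QRT-F: ATGgccctattagatcagagc
DET2-QRT-R: ggctttccatgaggatccaa
Both forward primers begin at the start codon, and the 21 bases of DET2-QRT-F are also the first bases of DET2-SF.

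The libraries held 7983668 to 12052409 fragments counted on genes. Summed FPKM (fragments per kilobase of gene, scaled to the library total) of 33 gene models of xylem markers, such as cellulose synthase and laccase genes of the secondary wall, reached 9208 to 9516 in *PagDET2*-OE XY and 8047 to 8170 in 84K XY, so XY carried its label. In BA the same markers summed to 279 to 296 in *PagDET2*-OE trees and 385 to 418 in 84K trees. Those of 9 cambium markers in BA overlapped between genotypes, at 773 to 826 in *PagDET2*-OE trees and 770 to 821 in 84K trees. Shoot apex markers (12 models) summed to 412 to 442 in *PagDET2*-OE PS and 381 to 429 in 84K PS. They also summed to 289 to 302 in *PagDET2*-OE BA and 307 to 322 in 84K BA, so their sum set PS only moderately apart from BA. *KNAT1*, the largest part of the sum, averaged 245 FPKM in 84K PS and 191 FPKM in 84K BA. The *STM* models Potri.011G011100 and Potri.004G004700 averaged 58.2 and 37.2 FPKM in 84K PS against 68.8 and 51.7 FPKM in 84K BA. By contrast, the *PDF1* models Potri.005G200900 and Potri.002G060800 averaged 24.5 and 42.2 FPKM in 84K PS against 0.498 and 1.11 FPKM in 84K BA. The models of *WUS* and *CUC2*, regulators of the meristem, were all below 1 FPKM in PS. Markers of green tissue (7 models) were higher in *PagDET2*-OE PS, at 661 to 727, than in 84K PS, at 506 to 526. The reads came from bulk tissue, in which fewer cells of a type and less RNA per cell cannot be told apart.

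*DET2*, the targeted gene (chr16:11305579-11306422, *P. trichocarpa* v3.1 coordinates as throughout), separated the genotypes in every library. It had 1755, 1738 and 1985 FPKM in *PagDET2*-OE PS against 6.01, 7.30 and 10.1 FPKM in 84K PS. In BA it had 2994, 3139 and 3068 FPKM in *PagDET2*-OE trees against 9.44, 8.09 and 8.43 FPKM in 84K trees. In XY it had 2419, 2455 and 2502 FPKM in *PagDET2*-OE trees against 7.57, 8.28 and 5.02 FPKM in 84K trees. All 9 *PagDET2*-OE libraries thus lay far above all 9 libraries of 84K. *DET2* was 236-fold higher in PS, 355-fold higher in BA and 373-fold higher in XY, with log2 fold changes of 7.88 ± 0.18, 8.47 ± 0.06 and 8.54 ± 0.14 (SE, edgeR's quasi-likelihood test, adjusted p = 8.5e-06, 6.02e-18 and 5.11e-09). The other 2 gene models annotated as *DET2* had no count in any library. In 84K the *DET2* level did not differ between domains beyond the spread of its libraries (adjusted p = 0.107 to 0.542 in edgeR), and its order among domains turned with the scaling of the libraries.

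**Figure D1:**
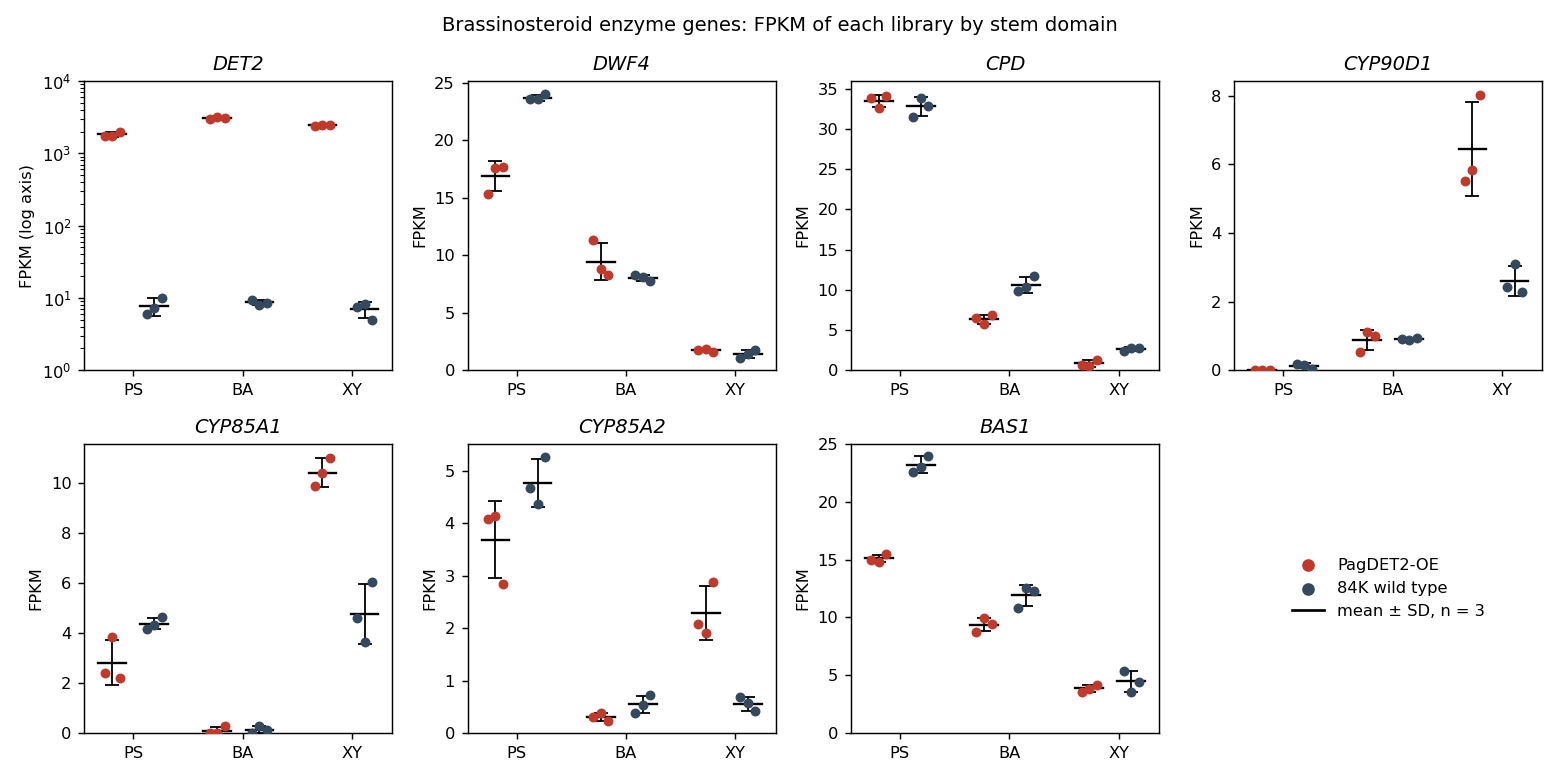
FPKM (vertical axis, logarithmic for *DET2* and linear from 0 for the others) of 7 brassinosteroid enzyme genes in each library of PS, BA and XY, with *PagDET2*-OE left of 84K. Points are libraries and lines are the mean ± SD (n = 3). *DWF4*, *CPD* and *BAS1* are highest in PS and lowest in XY, whereas *CYP90D1* and *CYP85A1* are highest in XY of *PagDET2*-OE trees, at 5.52 to 8.03 and 9.85 to 11.0 FPKM.

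The wild type was examined first to learn where along the stem each enzyme gene is transcribed. In 84K, 6 of 7 genes differed between PS and BA, 5 of 7 between XY and BA and 6 of 7 between PS and XY (edgeR, adjusted p of at most 0.05). Domains differed in most genes, and 67.9%, 71.9% and 78.7% of all genes tested passed in the same 3 comparisons. The *DWF4*, *CPD* and *BAS1* genes shared a single order, PS above BA above XY. *CYP90D1* had the opposite order, *CYP85A1* was lowest in BA, and *CYP85A2* was lower in BA and XY than in PS.

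*DWF4* averaged 23.7 ± 0.267 FPKM in 84K PS, 8.03 ± 0.278 FPKM in 84K BA and 1.39 ± 0.355 FPKM in 84K XY (SD, n = 3 libraries). It was 2.95-fold higher in PS than in BA and 11.1-fold higher in PS than in XY (edgeR, adjusted p = 5.68e-10 and 6.42e-14). *CPD* averaged 32.8 ± 1.22, 10.6 ± 0.952 and 2.64 ± 0.242 FPKM in the same order, 3.07-fold higher in PS than in BA and 8.24-fold higher than in XY (edgeR, adjusted p = 1.63e-11 and 5.84e-15). *BAS1* had a flatter gradient, with 23.2 ± 0.737, 11.9 ± 0.919 and 4.46 ± 0.915 FPKM. Each step of it passed the test, with PS 1.94-fold above BA and XY 1.80-fold below BA (edgeR, adjusted p = 3.96e-07 and 1.21e-05).

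*CYP90D1* was nearly silent in 84K PS, where its 3 libraries held 4, 3 and 1 counts, and was highest in XY. It averaged 0.127 ± 0.0738, 0.917 ± 0.0299 and 2.60 ± 0.432 FPKM in PS, BA and XY, 4.18-fold higher in XY than in BA (edgeR, adjusted p = 5.34e-07). *CYP85A1* showed the reverse of a gradient, with 4.37 ± 0.235 FPKM in PS, 0.127 ± 0.132 FPKM in BA and 4.75 ± 1.19 FPKM in XY. Its BA libraries held 0, 4 and 2 counts, so the 50.0-fold and 30.4-fold differences of XY and PS from BA (edgeR, adjusted p = 1.64e-10 and 3.74e-09) rest on very few fragments. *CYP85A2* averaged 4.77 ± 0.457 FPKM in PS, 0.543 ± 0.170 FPKM in BA and 0.559 ± 0.133 FPKM in XY. It was 5.79-fold higher in PS than in XY (edgeR, adjusted p = 2.5e-08), and its levels in XY and BA were not distinguishable (log2 fold change of 0.54 ± 0.35, SE, adjusted p = 0.166).

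Fold changes between domains were computed after TMM scaling, which corrects for the few very abundant transcripts of a tissue, whereas FPKM are scaled to the library total alone. With FPKM as input (limma, pseudocount 0.1) the median gene was 0.67 log2 units higher in PS than in XY, against 0.10 after TMM. The PS to XY contrast of *CYP85A1* depended on this, with a log2 fold change of -0.72 ± 0.23 (SE, adjusted p = 0.00769 in edgeR) and -0.09 on the log2(FPKM + 0.1) scale (adjusted p = 0.845). Without 84K XY replicate 3 it was -0.48 (adjusted p = 0.0743 in edgeR), so PS and XY are not reliably ordered for *CYP85A1*. The same contrast of *DET2* was 0.16 with FPKM as input, against -0.39 in the TMM fit, which passed the test without 84K PS replicate 3 (-0.62, adjusted p = 0.0204 in edgeR) or 84K XY replicate 3 (-0.59, adjusted p = 0.0169).

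**Figure D2:**
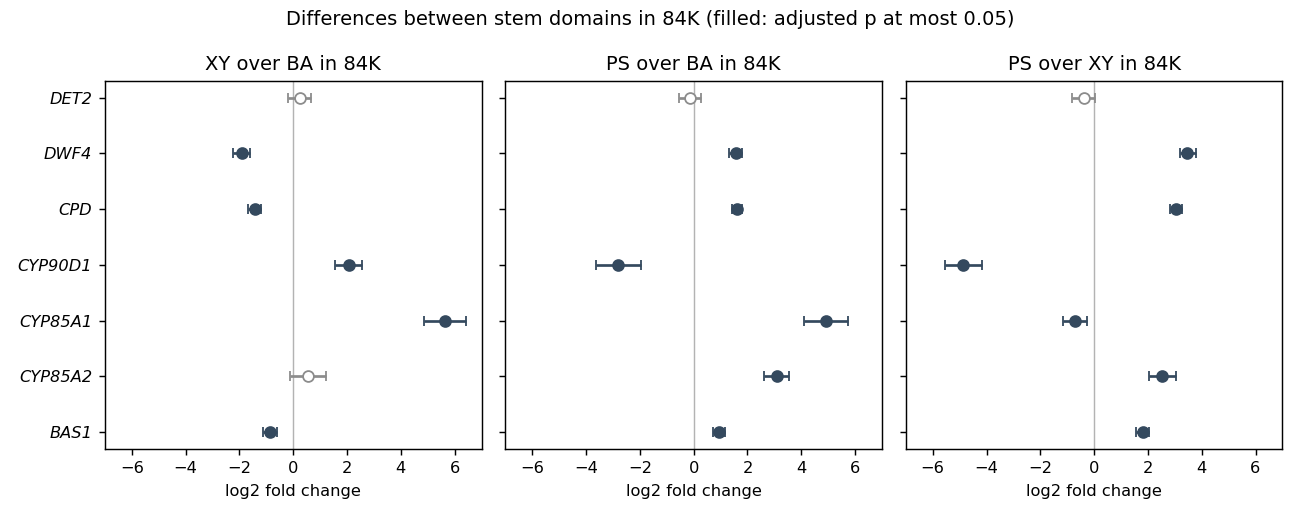
Log2 fold change (horizontal axis) of each of 7 genes between 2 domains of 84K, with 95% intervals from the standard error of edgeR's fit over 9 libraries. Filled points had an adjusted p of at most 0.05. *DWF4*, *CPD* and *BAS1* lie on one side of 0 in every panel and *CYP90D1* on the other, at -4.86 for *CYP90D1* and 3.47 for *DWF4* in PS over XY.

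The second comparison asked how *DET2* overexpression changed the other enzyme genes in each domain. Leaving *DET2* aside, 2 of 5 tested genes fell and 0 rose in PS, 1 of 4 fell and 0 rose in BA, and 3 of 6 rose and 1 fell in XY. Of all genes tested in PS, 15% passed (8.08% higher, 6.9% lower). The corresponding shares were 11.5% in BA (6.19% higher, 5.34% lower) and 19.4% in XY (10% higher, 9.34% lower). The median log2 fold change of the tested genes lay at -0.47 (PS), -0.20 (BA) and 0.76 (XY), whereas the median over all genes was 0.00 in each domain. Of the genes that did not pass as higher in PS and BA, none had an unadjusted p under 0.05 and a positive change, and DESeq2 called none higher there. The filter on low counts left *CYP90D1* untested in PS and both *CYP85A* genes untested in BA.

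**Figure D3:**
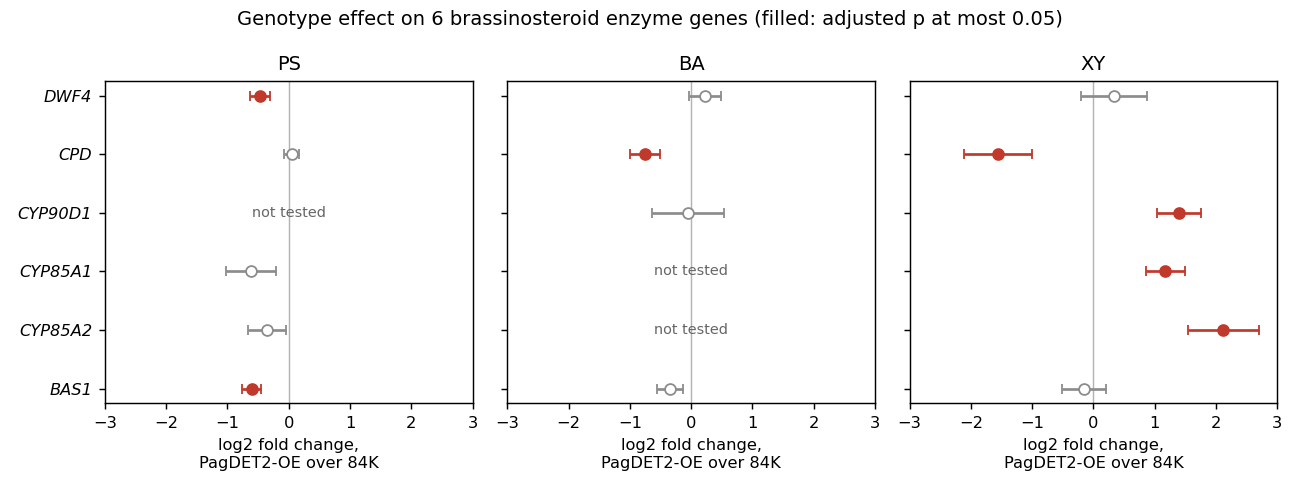
Log2 fold change of *PagDET2*-OE over 84K (horizontal axis) for 6 brassinosteroid enzyme genes in PS, BA and XY, with 95% intervals from the standard error of edgeR's fit to the 6 libraries of a domain. Filled points had an adjusted p of at most 0.05. *DWF4* and *BAS1* fell in PS, *CPD* fell in BA and XY, and *CYP90D1*, *CYP85A1* and *CYP85A2* rose in XY, by 1.39, 1.17 and 2.12.

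*DWF4* (chr7:1996895-2002231), the side-chain hydroxylase, fell in the primary stem. It had 15.3, 17.6 and 17.7 FPKM in *PagDET2*-OE PS against 23.6, 23.6 and 24.0 FPKM in 84K PS. The groups did not overlap, and *DWF4* was 1.39-fold lower (log2 fold change -0.47 ± 0.08, SE, edgeR's adjusted p = 0.00128). In BA it had 11.3, 8.77 and 8.25 FPKM in *PagDET2*-OE trees against 8.26, 8.10 and 7.72 FPKM in 84K trees, which overlapped (0.23 ± 0.13, adjusted p = 0.295 in edgeR). In XY it was near the lower end of the set, with 1.75, 1.81 and 1.62 FPKM in *PagDET2*-OE trees against 1.04, 1.38 and 1.75 FPKM in 84K trees (0.34 ± 0.28, adjusted p = 0.429 in edgeR). The genotype effect on *DWF4* was higher in BA than in PS by 0.69 ± 0.17 log2 units and higher in XY than in PS by 0.83 ± 0.24 log2 units (SE, interaction terms in edgeR, adjusted p = 0.00979 and 0.023). Leaving out *PagDET2*-OE PS replicate 1, *PagDET2*-OE XY replicate 2, 84K XY replicate 1 or 84K XY replicate 2 ended the call for XY against PS, at 0.67 to 0.81 (adjusted p = 0.0508 to 0.0846).

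*CPD* (chr10:18523121-18527672), a steroid oxidase, fell in BA and XY. In PS no difference was detected, with 33.8, 32.6 and 34.1 FPKM in *PagDET2*-OE trees against 31.5, 33.9 and 32.9 FPKM in 84K trees (log2 fold change 0.05, 95% interval -0.07 to 0.17, adjusted p = 0.672 in edgeR). In BA it had 6.47, 5.69 and 6.84 FPKM in *PagDET2*-OE trees against 9.85, 10.3 and 11.7 FPKM in 84K trees. In XY it had 0.651, 0.584 and 1.28 FPKM in *PagDET2*-OE trees against 2.36, 2.77 and 2.79 FPKM in 84K trees. Neither pair of groups overlapped, and the XY values stood for 12, 12 and 31 counts in *PagDET2*-OE trees against 38, 48 and 61 counts in 84K trees. *CPD* was 1.68-fold lower in BA and 2.95-fold lower in XY (log2 fold changes -0.75 ± 0.12 and -1.56 ± 0.29, SE, edgeR's adjusted p = 0.00126 and 0.000872).

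The decrease of *CPD* differed from its effect in PS by -0.81 ± 0.17 log2 units in BA and by -1.58 ± 0.23 log2 units in XY (SE, interaction terms in edgeR, adjusted p = 0.00219 and 4.55e-05). The effect in XY differed from that in BA by -0.76 ± 0.24 log2 units (SE, adjusted p = 0.0372 in edgeR), and leaving out 1 of 8 libraries ended this call (adjusted p = 0.0575 to 0.176). These were *PagDET2*-OE BA replicates 1 and 3, 84K BA replicates 1 and 2, *PagDET2*-OE XY replicates 1 and 2, and 84K XY replicates 2 and 3, with differences of -0.75 to -0.55. Summed xylem markers were also lower in *PagDET2*-OE BA than in 84K BA and higher in *PagDET2*-OE XY than in 84K XY, by the values given above. Phloem markers (9 models) in XY summed to 418 to 442 FPKM in *PagDET2*-OE trees against 489 to 514 FPKM in 84K trees. Nearly all of this phloem sum was the *SUC2* model Potri.019G085800, with means of 407 FPKM in *PagDET2*-OE XY and 477 FPKM in 84K XY. The part of these markers in the *CPD* differences was not tested.

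*CYP90D1* (chr1:19466298-19471741), a side-chain hydroxylase of the same P450 family, rose in the wood. It had 5.52, 5.83 and 8.03 FPKM in *PagDET2*-OE XY against 2.42, 3.09 and 2.28 FPKM in 84K XY, without overlap. The difference was 2.61-fold (log2 fold change 1.39 ± 0.18, SE, edgeR's adjusted p = 3.55e-05). In BA it had 0.543, 1.12 and 0.988 FPKM in *PagDET2*-OE trees against 0.910, 0.890 and 0.949 FPKM in 84K trees, and the 84K values lay within the range of the *PagDET2*-OE values (-0.05, 95% interval -0.64 to 0.54, adjusted p = 0.942 in edgeR). The effect in XY exceeded that in BA by 1.48 ± 0.37 log2 units (SE, interaction term in edgeR, adjusted p = 0.00892). In PS no fragment was counted in any *PagDET2*-OE library, against 4, 3 and 1 counts in the libraries of 84K. A count of 0 in a library allows up to 3 counts at the 95% level, so no fold is given there. A fit of all 18 libraries put *CYP90D1* lower in *PagDET2*-OE PS (adjusted p = 0.0341 in edgeR). Without the filter on low counts it did not pass in PS (adjusted p = 0.0862 in edgeR).

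*CYP85A1* (chr4:10961737-10964515), an enzyme of castasterone formation, also rose in XY. It had 9.85, 10.4 and 11.0 FPKM in *PagDET2*-OE XY against 4.59, 3.65 and 6.02 FPKM in 84K XY, without overlap. This was a 2.25-fold difference (log2 fold change 1.17 ± 0.17, SE, edgeR's adjusted p = 7.48e-05). In PS the values leaned the other way, with 2.40, 3.83 and 2.20 FPKM in *PagDET2*-OE trees against 4.17, 4.31 and 4.63 FPKM in 84K trees (-0.61 ± 0.21, adjusted p = 0.0586 in edgeR). The groups in PS did not overlap, and the difference passed the test when *PagDET2*-OE PS replicate 2, the highest of its group, was left out (-0.91, adjusted p = 0.0137 in edgeR). BA held 0, 0 and 4 counts in *PagDET2*-OE trees against 0, 4 and 2 counts in 84K trees, which is too few for a comparison. The effect in XY exceeded that in PS by 1.81 ± 0.35 log2 units (SE, interaction term in edgeR, adjusted p = 0.00114).

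*CYP85A2* (chr17:11666996-11670927), which in *Arabidopsis* also forms brassinolide, had the largest fold change in XY among the 6 genes other than *DET2*. It had 2.08, 1.91 and 2.89 FPKM in *PagDET2*-OE XY against 0.680, 0.579 and 0.417 FPKM in 84K XY. The groups lay far apart, although the values of 84K stood for only 12, 11 and 10 counts. The difference was 4.36-fold (log2 fold change 2.12 ± 0.29, SE, edgeR's adjusted p = 5.77e-05). On the log2(FPKM + 1) scale, which understates changes of low genes, it was 1.07, and adjusted p ranged over 2.28e-06 to 0.00222 across the alternatives in edgeR, DESeq2 and limma. In PS it had 4.09, 4.14 and 2.84 FPKM in *PagDET2*-OE trees against 4.68, 4.37 and 5.27 FPKM in 84K trees, lower in each library but not past the test (-0.36 ± 0.16, adjusted p = 0.15 in edgeR). In BA it had 6, 8 and 5 counts in *PagDET2*-OE trees against 7, 12 and 18 counts in 84K trees. The effect in XY exceeded that in PS by 2.51 ± 0.34 and that in BA by 3.04 ± 0.49 log2 units (SE, interaction terms in edgeR, adjusted p = 1.48e-05 and 8.35e-05). The term against BA rests on the few BA counts given above, which did not pass the filter within BA. In XY the summed xylem markers were higher and the summed phloem markers, mostly the *SUC2* model named above, lower in *PagDET2*-OE trees. Among xylem models, *COBL4* Potri.004G117200 averaged 572 FPKM in *PagDET2*-OE XY and 255 FPKM in 84K XY. The *XCP2* model Potri.002G005700 averaged 952 and 601 FPKM in the same order. Some models were lower, among them *CESA4* Potri.002G257900, the most abundant, at 1469 and 1589 FPKM. The part of these markers in the rises of *CYP90D1*, *CYP85A1* and *CYP85A2* was not tested.

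*BAS1* (chr3:19617092-19621778), the inactivating hydroxylase, was lower in *PagDET2*-OE trees in the primary stem. It had 15.0, 14.8 and 15.5 FPKM in *PagDET2*-OE PS against 22.6, 23.0 and 24.0 FPKM in 84K PS. The groups were tight and apart, and *BAS1* was 1.52-fold lower (log2 fold change -0.60 ± 0.08, SE, edgeR's adjusted p = 0.000105). In BA it had 8.75, 9.94 and 9.46 FPKM in *PagDET2*-OE trees against 10.8, 12.5 and 12.3 FPKM in 84K trees, again without overlap (-0.34 ± 0.11, adjusted p = 0.0593 in edgeR). A fit of all 18 libraries and a fit without replicate 3 of both genotypes put the BA difference just past the threshold (-0.36 and -0.34, adjusted p = 0.0388 and 0.0356). In XY it had 3.53, 3.84 and 4.18 FPKM in *PagDET2*-OE trees against 5.39, 3.56 and 4.43 FPKM in 84K trees, which overlapped (-0.15 ± 0.18, adjusted p = 0.634 in edgeR). The genotype effect on *BAS1* was not shown to differ between domains (interaction terms of 0.24, 0.24 and 0.48 log2 units, adjusted p = 0.427, 0.376 and 0.082 in edgeR). It passed for XY against PS without 84K XY replicate 1, the highest of its group (0.62, adjusted p = 0.0307 in edgeR).

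Across the 3 contrasts between domains, 3 of 7 genes differed in genotype effect for XY against BA, 3 of 7 for BA against PS and 6 of 7 for XY against PS, where 13.3%, 9.27% and 10.1% of all genes passed. Both counts against PS include *CYP90D1*, which was too low to be tested within PS. The call for *DET2* in XY against PS ended when any 1 of 15 libraries was left out (adjusted p = 0.0519 to 0.112 in edgeR, 0.46 to 0.75 log2 units). The libraries without which it held are named in the closing section. Green tissue markers were higher in *PagDET2*-OE PS than in 84K PS, and those in BA summed to 207 to 227 FPKM in *PagDET2*-OE trees against 175 to 180 FPKM in 84K trees. Phloem markers in PS summed to 57.7 to 65.9 FPKM in *PagDET2*-OE trees against 68.3 to 78.5 FPKM in 84K trees. Cambium markers summed to 253 to 264 FPKM in *PagDET2*-OE PS against 268 to 281 FPKM in 84K PS, and both sums were lower without overlap. The cambium sum was lower through both *PXY* models (means of 51.1 and 37.4 FPKM in *PagDET2*-OE PS, 62.0 and 46.2 FPKM in 84K PS). The *WOX4* model Potri.002G124100 was lower as well (29.5 against 37.7 FPKM). All *ANT* models and the other *WOX4* model had higher means in *PagDET2*-OE PS. Whether these marker differences bear on the lower *DWF4* and *BAS1* levels in PS was not tested.

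The make-up of the set differed along the stem and between genotypes. The summed FPKM of the 6 genes other than *DET2* was 70.6 to 73.0 in *PagDET2*-OE PS against 86.7 to 90.9 in 84K PS, 25.9 to 27.3 in *PagDET2*-OE BA against 30.2 to 33.5 in 84K BA, and 23.4 to 29.0 in *PagDET2*-OE XY against 15.0 to 17.7 in 84K XY. The sum was thus lower in PS and BA and higher in XY of *PagDET2*-OE trees, without overlap in any domain. *CPD* took 44.7% to 47.8% of the sum in *PagDET2*-OE PS against 36.2% to 38.0% in 84K PS, and 2.40% to 4.40% in *PagDET2*-OE XY against 14.3% to 18.4% in 84K XY. *CYP85A1* was the leading gene in *PagDET2*-OE XY, with 38.0% to 42.7% of the sum, against 24.3% to 34.0% in 84K XY. In XY of 84K, *BAS1* exceeded *CYP85A1* in 1 of 3 libraries.

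**Figure D4:**
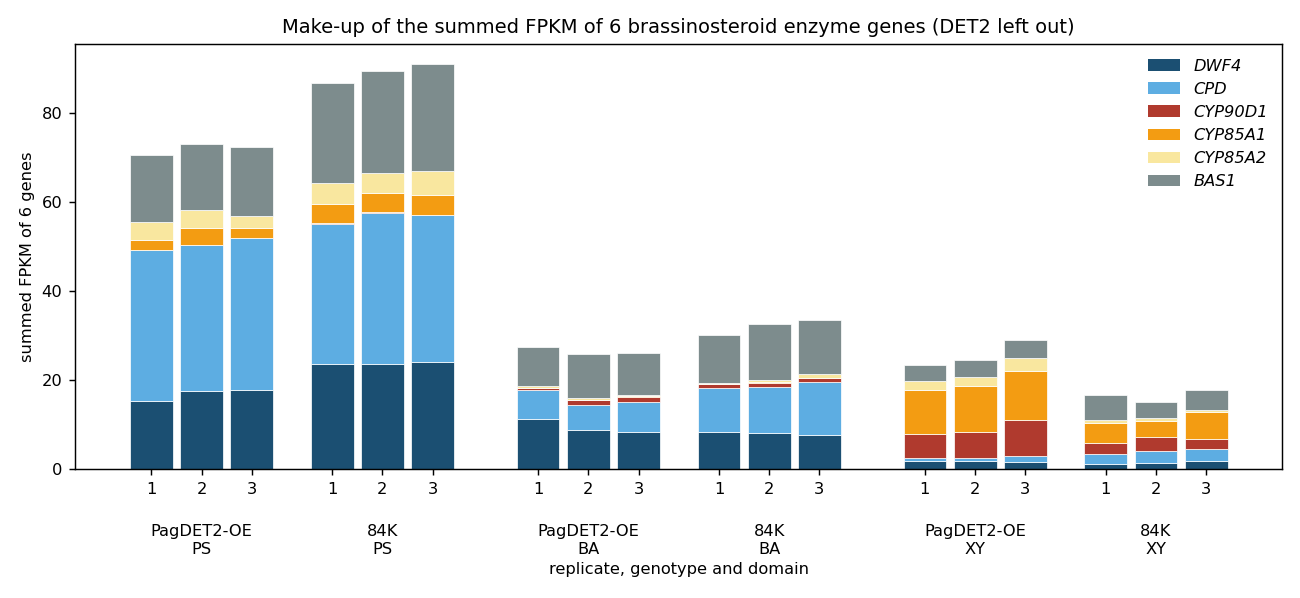
Summed FPKM (vertical axis, from 0) of 6 brassinosteroid enzyme genes in each of 18 libraries, stacked by gene, with *PagDET2*-OE left of 84K in each domain. *CPD*, *DWF4* and *BAS1* fill most of the PS bars, whereas *CYP85A1* and *CYP90D1* fill most of the XY bars of *PagDET2*-OE trees, which reach 23.4 to 29.0 against 15.0 to 17.7 in 84K.

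Between the castasterone-forming genes, *CYP85A2* supplied 51.9% to 63.1% of their joint FPKM in *PagDET2*-OE PS against 50.3% to 53.2% in 84K PS. In XY it supplied 15.5% to 20.8% in *PagDET2*-OE trees against 6.47% to 13.7% in 84K trees. The genes thus had similar levels in the primary stem, *CYP85A1* held most of the sum in the wood of both genotypes, and the share of *CYP85A2* in XY was higher in every *PagDET2*-OE library than in any of 84K.

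Several of the 7 genes have further gene models of the same symbol, and reads of near-identical copies could have been divided between them. The symbol *CPD* is carried by 4 gene models, and Potri.008G067500 was the most abundant of the others. This copy had the higher mean of the pair in BA, although *CPD* exceeded it in 1 of 3 libraries of 84K BA, with 13.1 ± 0.725 FPKM in *PagDET2*-OE trees and 11.8 ± 1.43 FPKM in 84K trees (SD, n = 3 libraries). It did not follow the decrease of *CPD*, with log2 fold changes of -0.26, 0.15 and 0.11 in PS, BA and XY (edgeR, adjusted p = 0.323, 0.413 and 0.801). Of the joint FPKM, *CPD* held 29.0% to 35.2% in *PagDET2*-OE BA against 42.8% to 53.1% in 84K BA, and 19.6% to 30.3% in *PagDET2*-OE XY against 46.5% to 58.2% in 84K XY.

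**Figure D5:**
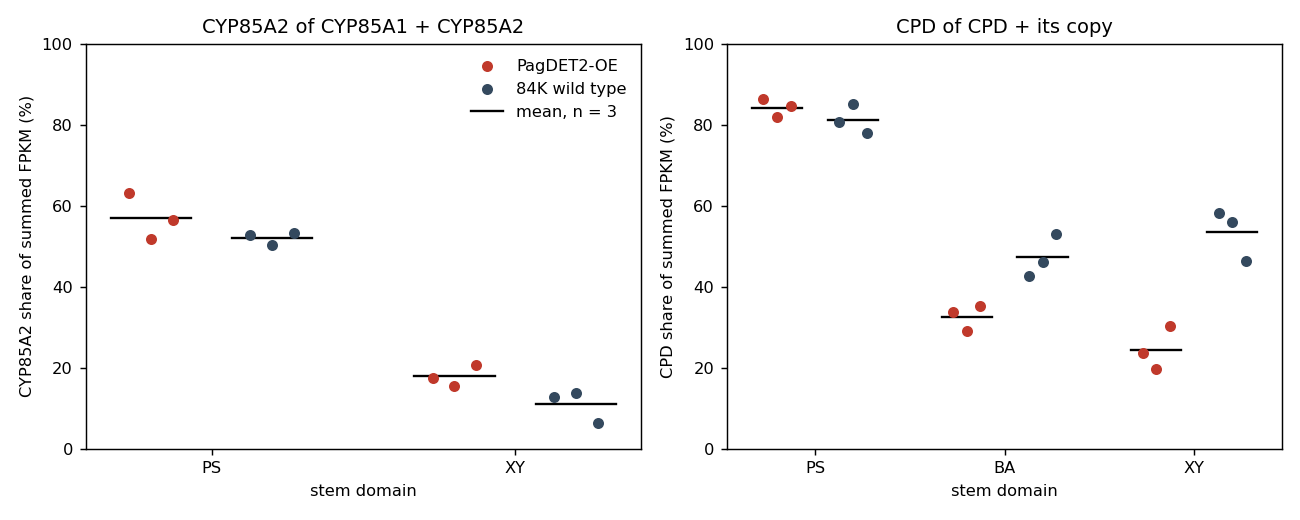
Share of the summed FPKM of a gene pair (vertical axis, percent, from 0 to 100) held by *CYP85A2* beside *CYP85A1* in PS and XY (left) and by *CPD* beside its copy Potri.008G067500 in PS, BA and XY (right), with *PagDET2*-OE left of 84K. Points are libraries and lines are means of 3. *CPD* drops to 19.6% to 30.3% in *PagDET2*-OE XY, below the 46.5% to 58.2% of 84K XY.

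The symbol *BAS1* is carried by 14 gene models, of which Potri.001G032800 was the most abundant and had a higher level than the *BAS1* gene described. It averaged 48.6 ± 2.27 FPKM in *PagDET2*-OE PS and 60.1 ± 3.50 FPKM in 84K PS, and 32.4 ± 1.27 FPKM in *PagDET2*-OE BA and 42.7 ± 2.63 FPKM in 84K BA (SD, n = 3 libraries each). It fell in both domains by less than 2-fold (log2 fold changes -0.29 and -0.40, edgeR's adjusted p = 0.00445 and 0.00286) and not in XY (-0.12, adjusted p = 0.373 in edgeR). The second model of *DWF4*, Potri.005G124000, had 1.07 ± 0.168 FPKM in *PagDET2*-OE PS and 1.77 ± 0.416 FPKM in 84K PS (-0.70, adjusted p = 0.0826 in edgeR). These copies were singled out after their values were seen.

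The other genes of the pathway were described from lists of *Arabidopsis* symbols. Upstream, 43 genes of sterol synthesis supply the substrate. The only ones that passed with at least a 2-fold change between genotypes were 2 models of *CAS1*, the cycloartenol synthase at the entry of plant sterol synthesis. Potri.006G079200 averaged 5.50 ± 0.683 FPKM in *PagDET2*-OE XY and 1.36 ± 0.171 FPKM in 84K XY, and 2.74 ± 0.235 FPKM in *PagDET2*-OE BA and 1.19 ± 0.0806 FPKM in 84K BA (SD, n = 3 libraries each). It rose in both (log2 fold changes 2.06 and 1.20, edgeR's adjusted p = 2.2e-08 and 0.000223), and its neighbour Potri.006G079100 rose in XY (1.99, adjusted p = 2.61e-06 in edgeR). This neighbour had only 17, 20 and 27 counts in 84K XY. Of the sterol genes tested, 3 rose and 2 fell among 32 in BA, and 9 rose and 1 fell among 31 in XY, where 11.5% and 19.4% of all genes passed in either direction. The median log2 fold changes of the list were 0.14 and 0.19, against 0.00 over all genes in each. In PS 0 of 33 passed edgeR's test (7 had an unadjusted p under 0.05, and DESeq2 called 0). *SMT2* (Potri.005G245800), a sterol methyltransferase and the most abundant gene of the list, had 151 ± 7.50 FPKM in *PagDET2*-OE XY and 152 ± 6.73 FPKM in 84K XY (SD, n = 3 libraries each).

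In the synthesis list, 12 genes beside the 6 described comprise mostly copies with few or no fragments. Only 3 of them could be tested in PS, 2 in BA and 2 in XY, and 0 passed edgeR's test (1, 1 and 0 had an unadjusted p under 0.05, and DESeq2 called 0 in each domain). *ROT3* (Potri.007G018400), a close relative of *CYP90D1* in sequence and step, had the highest level of them and was confined largely to PS. It averaged 40.2 ± 1.74 FPKM in *PagDET2*-OE PS and 42.4 ± 0.704 FPKM in 84K PS, 0 FPKM in *PagDET2*-OE BA and 0.136 ± 0.150 FPKM in 84K BA, and 3.36 ± 0.283 FPKM in *PagDET2*-OE XY and 3.70 ± 0.442 FPKM in 84K XY (SD, n = 3 libraries each). It was thus highest in the domain where *CYP90D1* was lowest, and it did not pass the test between genotypes in PS or XY (-0.06 and -0.07, adjusted p = 0.532 and 0.825 in edgeR). In BA it was too low to be tested, with 0 counts in *PagDET2*-OE trees against 0, 2 and 6 counts in 84K trees. Its genotype effect passed as different for XY minus BA and BA minus PS (4.23 and -4.21, interaction terms in edgeR, adjusted p = 0.0155 and 0.0214). These terms rest on the few BA counts, so their size is no estimate.

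Inactivation genes other than the *BAS1* gene described numbered 33. Among them were further models of the symbol *BAS1*, and reductases and transferases that modify the hormone. In PS 1 of 10 tested fell, in BA 2 of 9 fell, and in XY 1 of 6 rose and 1 fell, where 6.9% and 5.34% of all genes fell in PS and BA and 19.4% passed in either direction in XY. The gene that fell in PS, and 1 of the 2 in BA, was the *BAS1* copy Potri.001G032800 already described above. The median log2 fold changes of the tested genes of this list were -0.25, -0.23 and -0.04. *BEN1* (Potri.006G087200), a reductase that lowers active brassinosteroids in *Arabidopsis*, rose in XY, with 3.59 ± 0.358 FPKM in *PagDET2*-OE trees and 1.14 ± 0.251 FPKM in 84K trees (SD, n = 3 libraries each, log2 fold change 1.72, edgeR's adjusted p = 0.00023). Another *BEN1* model, Potri.T168500, had the highest level of the list and fell slightly in BA and XY (-0.32 and -0.39, edgeR's adjusted p = 0.0129 and 0.00634).

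Of 49 genes of perception and signalling, 1 rose and 6 fell among 43 tested in PS, 2 rose and 2 fell among 42 in BA, and 9 rose and 5 fell among 38 in XY. Over all genes 15%, 11.5% and 19.4% passed in either direction in these domains. With directions pooled, the counts in PS and BA were thus near the share of all genes, and that in XY was above it. By direction, 8.08% of all genes rose and 6.9% fell in PS, so fewer genes of the list rose there and more fell. The median log2 fold changes were -0.12, -0.03 and -0.01. *BEE3* is a basic helix-loop-helix factor named for its induction by brassinosteroids in *Arabidopsis*. The 3 *BEE3* models given here, named because they passed with at least a 2-fold change, rose in XY. Potri.012G055700 averaged 33.9 ± 2.18 FPKM in *PagDET2*-OE BA and 6.97 ± 0.859 FPKM in 84K BA, and 21.5 ± 0.0637 FPKM in *PagDET2*-OE XY and 3.84 ± 1.43 FPKM in 84K XY (SD, n = 3 libraries each). It rose in PS, BA and XY (log2 fold changes 0.93, 2.28 and 2.51, edgeR's adjusted p = 0.0134, 4.22e-08 and 1.73e-07). Potri.004G099400 rose in BA and XY (1.48 and 1.90, edgeR's adjusted p = 0.000458 and 0.00251) and Potri.015G046300 in XY (2.81, edgeR's adjusted p = 0.00011). In 84K XY, Potri.004G099400 had only 4, 4 and 8 counts and Potri.015G046300 only 7, 5 and 2 counts. *TCP1* (Potri.017G112000), which promotes *DWF4* transcription in *Arabidopsis*, fell in PS, with 1.72 ± 0.391 FPKM in *PagDET2*-OE trees and 3.73 ± 0.662 FPKM in 84K trees (log2 fold change -1.09, edgeR's adjusted p = 0.00604). *BIN2* (Potri.004G059000), the kinase that represses the pathway, had the highest level of the list and fell slightly in BA and XY (-0.21 and -0.22, edgeR's adjusted p = 0.00853 and 0.00303).

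Likeness of expression was measured as Pearson's r of log2(CPM + 1), where CPM are counts scaled to a common library size after TMM, over the 18 libraries (over the 9 libraries of 84K for *DET2*). These libraries share domain and genotype, so r describes mainly the order of domains, and no test was made. Within the set, r was 0.90 between *DWF4* and *CPD*, 0.92 between *DWF4* and *BAS1* and 0.93 between *CPD* and *BAS1*. *CYP90D1* ran opposite to all 3, with r of -0.95 against *CPD*, -0.92 against *DWF4* and -0.88 against *BAS1*. *CYP85A1* and *CYP85A2* had an r of 0.67 between each other.

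The genes most like each enzyme gene over the whole table were *TPS5* (r of 0.991), Potri.006G009400 and Potri.006G082700 for *DWF4*, and *MES1* (0.987), *PDIL1-3* and Potri.014G143600 for *CPD*. They were *UBP16* (0.993), Potri.003G156600 and Potri.011G132800 for *CYP90D1*, a coatomer subunit gene Potri.003G056300 (0.987), *NSF* and Potri.004G157700 for *CYP85A1*, and *ACA9* (0.971), *PYD1* and *CIPK1* for *CYP85A2*. For *BAS1* they were *PTR3* (0.972), *TCP1* (0.970) and its own copy Potri.001G032800 (0.969), and *TCP1* and this copy are also described above. *DET2* in 84K was most like *GTE1* (0.919), *EMB3007* and Potri.003G085900. With Spearman's rank correlation or log2(FPKM + 1) in place of this measure, 0 to 2 of the 3 genes remained for each, so the names are not a stable choice.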

How the data were processed

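Counts of fragments per gene and FPKM were deposited for 18 libraries in a single table. Per the methods and the labels, the authors mapped reads by HISAT2 (version 2.0.4) on the *P. trichocarpa* v3.1 genome, which is not the species sequenced, and counted fragments with StringTie (version 1.3.0). The authors named TMM for normalization and computed the deposited FPKM by a script. Deposited FPKM equalled the deposited counts divided by gene length and library total (median coefficient of variation 7.44e-05% over 9931 genes), so they carry no TMM scaling. Strand use and the handling of reads shared by gene copies are not given in the sources used here.

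Counts were tested with edgeR (version 4.0.16, R 4.3.3) by two-sided robust quasi-likelihood tests after TMM and filterByExpr (minimum count 10, total 15), with Benjamini-Hochberg adjustment over all genes. Genes passed at an adjusted p of at most 0.05, and DEGs also changed at least 2-fold. Genotypes were compared within each domain (6 libraries), domains within 84K (9 libraries), and genotype effects between domains as interaction terms (18 libraries, taken as independent although trees may recur). Standard errors were derived from the F statistics. The fits were tested on simulated data. Alternatives were DESeq2 (version 1.42.0), limma (version 3.58.1) on log2(FPKM + 0.1) and log2(FPKM + 1), other scalings, no filter, a replicate block and each library left out.

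The gene set and the lists were chosen with earlier results of these data known. From the lists, DEGs, the gene with the highest mean FPKM and, for each of the 7 genes, the 3 genes with the highest r (mean of at least 1 CPM) were named. Gene models outside the family meant by a symbol were removed after their descriptions were seen, 12 from the inactivation list and 5 from the shoot apex markers. Marker symbols not matched in the table were *ATML1*, *CLV3*, *CALS7*, *SEOR1*, *MOL1*, *TDR* and *LHCB1.1*.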

Additional observations from a re-analysis of the deposited data

Results flagged for a closer look

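The genotype effect differed between domains in 12 tests of the 7 genes (interaction terms in edgeR, adjusted p of at most 0.05). For XY minus BA the differences in log2 units were -0.76 for *CPD*, 1.48 for *CYP90D1* and 3.04 for *CYP85A2*. For BA minus PS they were 0.69 for *DWF4*, -0.81 for *CPD* and 4.27 for *CYP90D1*. For XY minus PS they were 0.69 for *DET2*, 0.83 for *DWF4*, -1.58 for *CPD*, 5.75 for *CYP90D1*, 1.81 for *CYP85A1* and 2.51 for *CYP85A2*.

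Both *CYP90D1* values against PS rest on PS libraries with 0 counts in *PagDET2*-OE trees and 4, 3 and 1 counts in 84K trees, so their size is no estimate. The difference for BA minus PS (adjusted p = 0.0464 in edgeR) lost its call without 1 of 12 libraries (adjusted p = 0.0511 to 0.127, 3.86 to 4.30). These were *PagDET2*-OE PS replicates 1, 2 and 3, 84K PS replicates 1 and 2, *PagDET2*-OE BA replicates 2 and 3, 84K BA replicates 1, 2 and 3, *PagDET2*-OE XY replicate 2 and 84K XY replicate 1. The difference for *DET2* (adjusted p = 0.047 in edgeR) lost its call without 1 of 15 libraries (adjusted p = 0.0519 to 0.112, 0.46 to 0.75), and held only without *PagDET2*-OE PS replicate 3, 84K PS replicate 1 or 84K XY replicate 2.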

How the results depend on the processing

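Over 108 leave-one-out values of the 7 genes between genotypes, 106 kept direction and side of the threshold, as did 194 of 198 under the other alternatives. For domains of 84K these were 185 of 189 and 204 of 210, and for differences of genotype effects 331 of 378 and 172 of 189. The limits include depth for *CYP90D1* in PS and the *CYP85A* genes in BA, and the scaling between domains. A further limit is that some differences of genotype effects lost their call without 1 library. For XY minus PS this held for 15 libraries for *DET2* and 4 for *DWF4*. It held for 8 libraries for *CPD* in XY minus BA and 12 for *CYP90D1* in BA minus PS.

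Genes passing between genotypes numbered 3590 in PS, against 2251 with DESeq2, 5491 with the replicate block and 2106 to 3606 leaving out 1 library. In BA they numbered 2728, against 4348 with the block, 5293 without replicate 3 of both genotypes and 1435 to 2817 leaving out 1 library. In XY they numbered 4122, against 6227 without replicate 3 of both genotypes. Among single libraries, leaving out *PagDET2*-OE PS replicate 1 (2281), 84K PS replicate 1 (2106) or 2 (2122), or 84K BA replicate 1 (1555) or 2 (1435) moved a count of genes most. The cause was not tested. Same-numbered libraries of the genotypes correlated in their deviations at 0.0163 to 0.154 in PS, 0.0671 to 0.144 in BA and 0.00304 to 0.0625 in XY. Other-numbered libraries reached 0.0797, 0.0427 and 0.0298, and 2, 6 and 4 of 6 libraries correlated best with their own number. Between 84K PS and 84K BA the values were 0.0768 to 0.147, against at most 0.0254 (6 of 6). Replicate numbers thus sorted the libraries, weakly, in these BA comparisons, and at most in part in PS and XY between genotypes. There the replicate 3 libraries correlated at 0.154 in PS and 0.0625 in XY, above every other-numbered pair. Replicates 1 and 2 of a group correlated at 0.99 to 0.993, and replicate 3 with either at 0.985 to 0.989. What the numbers stand for is not stated. With the block, *CYP85A1* in PS (-0.63, adjusted p = 0.0258) and *BAS1* in BA (-0.34, adjusted p = 0.0283) passed, and *DET2* for XY minus PS did not (0.69, adjusted p = 0.0812), and no other call of the 7 genes changed.

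Directions that turned were all of values that did not pass. *CYP90D1* in BA was 0.20 without *PagDET2*-OE BA replicate 1 (-0.25 to 0.20 leaving out 1 library). In 84K *DET2* was -0.34 and -0.30 for XY over BA and 0.16 and 0.14 for PS over XY with limma on FPKM (pseudocounts 0.1 and 1), and -0.39 to 0.01 for PS over BA leaving out 1 library. For XY minus BA *DET2* was -0.02 with limma (pseudocount 1) and -0.09 to 0.26 leaving out 1 library, and *DWF4* was -0.01 to 0.38. For BA minus PS *CYP85A1* was -3.27 to 1.02 leaving out 1 library, and *CYP85A2* was 0.07 with limma (pseudocount 1). Calls also ended with limma for *CPD* in XY minus BA (-0.34), *DWF4* (0.71) and *CPD* (-0.77) in BA minus PS and *CYP85A1* in XY minus PS (1.81). That for *DET2* in XY minus PS ended with limma (0.59 and 0.58, adjusted p = 0.127 and 0.0863), upper-quartile scaling (0.66, adjusted p = 0.0619) and no filter (0.70, adjusted p = 0.0637). That for *CYP90D1* in BA minus PS ended with limma (1.02 and 0.13, adjusted p = 0.139 and 0.729), no filter (4.28, adjusted p = 0.0544) and a fit that was not robust (4.27, adjusted p = 0.0577).

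Scaling moved the split of higher and lower calls over all genes. With limma on FPKM (pseudocount 0.1) it was 4516 higher and 15338 lower for XY over BA against 8396 and 9563 in edgeR, and 15157 and 5330 for PS over XY against 10529 and 9141. It was 1280 and 1974 for the genotypes in XY against 2136 and 1986, 996 and 2138 for XY minus BA against 1776 and 1652, and 923 and 1684 for XY minus PS against 1317 and 1289. Upper-quartile scaling gave 1362 and 1938 for XY minus BA.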

Other observations

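Counts of *DIM1*, a sterol reductase gene, were divided unevenly between its copies Potri.010G170000 and Potri.008G084800 in PS. The first copy held 59.4%, 39.1% and 60.6% of their joint FPKM in *PagDET2*-OE PS and 80.3%, 64.4% and 61.9% in 84K PS, whereas in BA it held 91.5% to 92.5% in *PagDET2*-OE trees and 90.9% to 91.4% in 84K trees. Their joint count was 4274, 3147 and 1907 in *PagDET2*-OE PS and 3133, 4236 and 4556 in 84K PS. The pair was chosen after its values were seen.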
